A study of Mus musculus with 9 samples.

Results

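Messenger RNA levels of 10 genes of interstitial fibrosis and the myofibroblast were examined in kidneys of mice given AngII (angiotensin II, the effector hormone of the renin-angiotensin system). The genes were chosen by name from the 32593 genes of the deposited table: the fibrillar collagen genes Col1a1, Col1a2 and Col3a1, the matrix genes Fn1, Sparc and Dcn, the contractile genes Acta2 and Tagln, the receptor gene Pdgfrb and the growth factor gene Tgfb1. Each had 1 row, and all 10 passed the filter on low values. The 9 libraries formed 3 groups of 3, all from kidney and all with AngII. The AngII group had the genotype Tmemfl/fl, a floxed allele without Cre. The CDH16KO-AngII group had CDH16 Cre+/Tmemfl/fl, the same floxed allele with a Cre labelled CDH16, after a cadherin gene active in renal tubule cells. The GRPR-AngII group had CDH16 Cre+/GRPRfl/fl, that Cre with another floxed allele. The sources used here do not give strain, sex, age, dose or length of treatment. No group without AngII was compared, so the effect of AngII on these genes is not analysed here, and the GRPR-AngII and AngII groups differ in the floxed allele as well as in Cre.

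Renal fibrosis is the build-up of matrix between tubules. Fibroblasts and pericytes of the interstitium, which carry the PDGF receptor beta, can turn into myofibroblasts that make type I and type III collagen and smooth muscle actin. Transforming growth factor beta 1, released in a latent form by epithelium, macrophages and other cells, is a main inducer of that change. In whole kidney, Acta2 and Tagln are also made by the smooth muscle of vessels. Those cells are not the tubule epithelium in which the Cdh16 promoter is known to be active. In bulk tissue, fewer cells of a type and less RNA per cell cannot be told apart.

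Total counts were 40731748 to 60449117 per library, and mitochondria-coded genes took 16.1% to 26.4% of them. The 6 proximal tubule markers summed to 7768 to 9458 CPM (counts scaled to library size) in AngII, 5802 to 7657 CPM in CDH16KO-AngII and 7890 to 9300 CPM in GRPR-AngII. By this sum, every CDH16KO-AngII library lay below those of the other groups. Slc34a1 alone gave 3596 to 6366 CPM of it. The mean log2 CPM of the 6 markers overlapped between groups, at 9.69, 9.57 and 9.29 in AngII, 9.26, 9.58 and 9.17 in CDH16KO-AngII and 9.41, 9.65 and 9.67 in GRPR-AngII. The label myofibroblast was read beside Postn and Fap, which do not test it. Postn, a matrix protein of activated fibroblasts, stood at only 0.05 to 0.15 FPKM (fragment counts scaled to transcript length and library size, the deposited unit) over the 9 libraries. Fap, fibroblast activation protein, stood at 0 to 0.13 FPKM. These genes mark the activated fibroblast more narrowly than the 10 genes do, and both lay below 1 FPKM in every library. Other fibroblast and pericyte markers were higher, such as Vim at 6.31 to 10.73 FPKM and Rgs5 at 5.5 to 11.89 FPKM. Of the 11 markers on that list, 8 passed the filter on low values. Of 15 smooth muscle genes, 10 passed the filter on low values, among them Myl9 at 17.82 to 31.07 FPKM and Myh11 at 1.78 to 3.42 FPKM, and Cnn1 at 0.27 to 0.62 FPKM did not.

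Per unit length, Sparc, Acta2 and Tagln stood well above the other genes. Mean FPKM over the 9 libraries was 19.2 ± 4.001 for Sparc, 12.5 ± 3.72 for Acta2, 9.30 ± 2.02 for Tagln and 3.70 ± 0.937 for Pdgfrb (SD, n = 9). It was 2.26 ± 0.492 for Dcn, 2.26 ± 0.638 for Col1a2, 1.89 ± 0.373 for Tgfb1, 1.88 ± 0.597 for Col3a1, 1.83 ± 0.666 for Fn1 and 1.78 ± 0.595 for Col1a1 (SD, n = 9). Sparc was above Acta2, Acta2 above Tagln, Tagln above Pdgfrb and Pdgfrb above Dcn in 9 of 9 libraries. The FPKM ranges of the neighbours Tagln and Pdgfrb did not overlap, from 7.0 to 12.78 against 2.22 to 5.1. From Dcn down, the genes could not be ranked. Neighbours in that order overlapped in range, and each stood above the next in only 4 to 7 of the 9 libraries. The plot of FPKM by gene shows this upper set of 3 genes and the lower set of 6, with Pdgfrb between them.

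**Figure D1:**
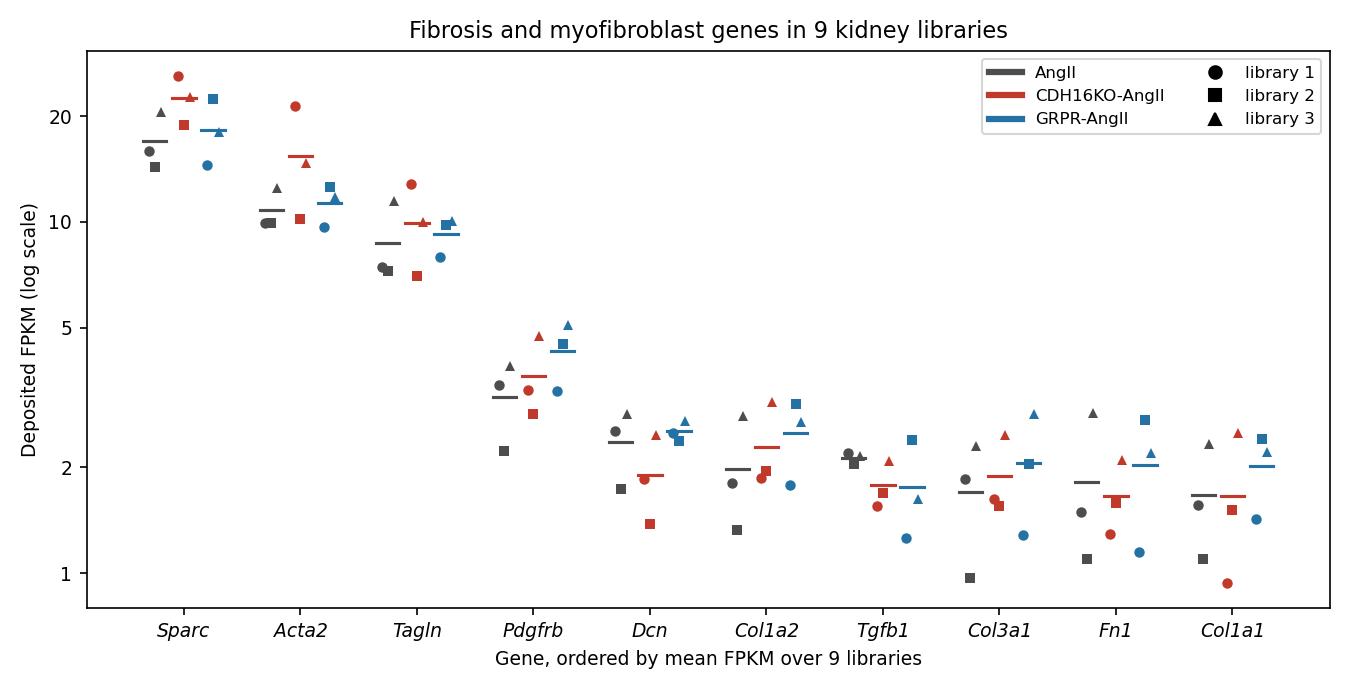
Deposited FPKM (log axis) of the 10 genes in 9 kidney libraries, ordered by mean. Points are libraries, with colour for the group and shape for the library number, and bars are group means. Sparc, Acta2 and Tagln lie at 7.0 FPKM or above in every library, and every other gene lies at 5.1 or below.

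The fibrillar collagen genes code for the chains of type I collagen (Col1a1 and Col1a2) and type III collagen (Col3a1), the main fibres of scar matrix. Col1a1 (chromosome 11, 94936224 to 94953042 on GRCm38) had a CPM of 12.6, 8.44 and 17.4 in libraries 1, 2 and 3 of AngII, at 7.47, 11.6 and 20.5 CPM in CDH16KO-AngII and at 11.4, 18.3 and 19.4 CPM in GRPR-AngII. Col1a2 (chromosome 6, 4504814 to 4541544) stood at 27.6, 19.3 and 39.6 CPM in AngII, at 27.9, 28.2 and 47.5 CPM in CDH16KO-AngII and at 26.9, 43.4 and 44.96 CPM in GRPR-AngII. Col3a1 (chromosome 1, 45311538 to 45349706) stood at 22.3, 11.1 and 25.7 CPM in AngII, at 19.2, 17.7 and 30.5 CPM in CDH16KO-AngII and at 15.4, 23.3 and 37.4 CPM in GRPR-AngII. All 3 were lowest of their group in AngII library 2 and highest of their group in library 3 of every group, and no pair of groups separated. None passed the threshold in any comparison: edgeR log2 fold changes in CDH16KO-AngII against AngII were 0.04 for Col1a1 (SE 0.37, adjusted p = 0.975), 0.26 for Col1a2 (SE 0.30, adjusted p = 0.797) and 0.19 for Col3a1 (SE 0.37, adjusted p = 0.878). The values of GRPR-AngII against AngII were 0.35, 0.42 and 0.36 (edgeR adjusted p = 0.835, 0.778 and 0.829). The 95% intervals of those last values reached 1.18 for Col1a1, 1.08 for Col1a2 and 1.19 for Col3a1, so a doubling was within what these libraries allow. The sign of Col1a1 in CDH16KO-AngII rested on single libraries, at −0.43 without CDH16KO-AngII library 3 and at 0.33 without CDH16KO-AngII library 1.

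The type I chain genes kept a near-constant ratio except in 1 library. The FPKM of Col1a1 divided by that of Col1a2 was 0.862, 0.827 and 0.832 in AngII and 0.803, 0.798 and 0.819 in GRPR-AngII. In CDH16KO-AngII it was 0.505 in library 1, and 0.774 and 0.82 in libraries 2 and 3. Library 1 of CDH16KO-AngII thus had the lowest Col1a1 of all libraries while its Col1a2 lay inside the AngII range. The ratio of Col3a1 to Col1a2 was less steady, from 0.679 to 1.05.

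Sequences around an annotated start of Col1a2 and of Col3a1 are shown with matches to promoter motifs. RefSeq windows of the GRCm38.p6 build, from 250 bases before to 50 bases after an annotated start, were at hand for 5 of the 10 genes. Matches are in capitals for TATAAA, for TATATAA, for CCAAT, for the CArG box and for a CArG-like form with 1 C or G among its inner bases, each searched on either strand. The Col1a2 window (chr6:4505368-4505667, plus strand) holds a CArG-like box at bases 23 to 32, CCAAT at bases 142 to 146 and its reverse complement at bases 251 to 255, counted from the 5′ end. The last of these is not upstream of the annotated start. The Col3a1 window (chr1:45311288-45311587, plus strand) holds TATAAA at bases 134 to 139.
Col1a2: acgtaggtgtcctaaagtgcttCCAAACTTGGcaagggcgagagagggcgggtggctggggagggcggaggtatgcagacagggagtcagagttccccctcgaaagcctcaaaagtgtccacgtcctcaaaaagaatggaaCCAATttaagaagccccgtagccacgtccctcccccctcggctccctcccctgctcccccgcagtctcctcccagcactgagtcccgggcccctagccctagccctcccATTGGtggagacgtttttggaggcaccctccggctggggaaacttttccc
Col3a1: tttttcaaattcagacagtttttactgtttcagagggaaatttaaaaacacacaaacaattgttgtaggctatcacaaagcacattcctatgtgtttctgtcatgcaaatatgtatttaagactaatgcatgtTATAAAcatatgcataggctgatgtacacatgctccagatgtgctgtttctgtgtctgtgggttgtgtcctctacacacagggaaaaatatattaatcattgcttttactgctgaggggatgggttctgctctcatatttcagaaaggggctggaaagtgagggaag
Of 32851 such windows over all genes, 37.4% hold CCAAT and 13.6% hold TATAAA. A match describes these letters only, and CCAAT and TATAAA are common.

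Among the other matrix genes, Sparc was the most abundant. It codes for a collagen-binding protein that takes part in fibril assembly (chromosome 11, 55394500 to 55423183). Sparc stood at 73.8, 63.2 and 88.4 CPM in AngII, at 118.6, 82.7 and 107.0 CPM in CDH16KO-AngII and at 66.9, 97.8 and 91.4 CPM in GRPR-AngII. CDH16KO-AngII libraries 1 and 3 lay above all AngII libraries, and library 2 lay below AngII library 3. The log2 fold change in CDH16KO-AngII against AngII was 0.45 (SE 0.19), a 1.37-fold difference. Its 95% interval of 0.02 to 0.88 left out 0 before adjustment, and it did not pass over all genes (unadjusted p = 0.0419, edgeR adjusted p = 0.582). Sparc was at 0.34 without CDH16KO-AngII library 1 and at 0.59 without CDH16KO-AngII library 2.

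Fn1 codes for fibronectin, an early matrix scaffold (chromosome 1, 71585520 to 71653175). Fn1 stood at 21.4, 15.01 and 37.97 CPM in AngII, at 18.2, 21.5 and 30.6 CPM in CDH16KO-AngII and at 16.5, 36.9 and 34.5 CPM in GRPR-AngII. Its spread within AngII alone was 2.53-fold, against 1.25-fold between the highest and lowest group mean. The log2 fold change was −0.08 in CDH16KO-AngII (SE 0.37) and 0.24 in GRPR-AngII (SE 0.37), each against AngII (edgeR adjusted p = 0.952 and 0.886).

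Dcn codes for decorin, a small proteoglycan that binds collagen fibrils and TGF-beta (chromosome 10, 97479609 to 97518143). Dcn stood at 18.1, 11.8 and 18.8 CPM in AngII, at 12.99, 9.34 and 18 CPM in CDH16KO-AngII and at 17.8, 16.02 and 21.2 CPM in GRPR-AngII. Unlike Sparc, it had its lowest group mean in CDH16KO-AngII, and the 3 groups still overlapped. The log2 fold change was −0.27 in CDH16KO-AngII against AngII (SE 0.25, edgeR adjusted p = 0.755) and GRPR-AngII stood 0.45 above CDH16KO-AngII (SE 0.25, 95% interval −0.12 to 1.01, edgeR adjusted p = 0.901).

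The contractile genes were highest in CDH16KO-AngII library 1. Acta2 codes for smooth muscle alpha-actin, the usual marker of myofibroblasts (chromosome 19, 34241090 to 34255590). Acta2 stood at 26.7, 25.4 and 31.0 CPM in AngII, at 56.7, 26.0 and 40.2 CPM in CDH16KO-AngII and at 25.9, 31.7 and 34.7 CPM in GRPR-AngII. CDH16KO-AngII spanned 2.18-fold, more than AngII at 1.22-fold and GRPR-AngII at 1.34-fold, and its library 2 lay within the AngII range. Acta2 had the highest value of the 10 genes in CDH16KO-AngII against AngII, a log2 fold change of 0.56 (SE 0.24, 95% interval 0.03 to 1.10), or 1.48-fold, which did not pass over all genes (unadjusted p = 0.0412, edgeR adjusted p = 0.579). It was 0.26 without CDH16KO-AngII library 1 (edgeR adjusted p = 0.934) and 0.81 without CDH16KO-AngII library 2 (edgeR adjusted p = 0.0774). Over the other 12 settings the adjusted p was 0.387 or more. In GRPR-AngII the log2 fold change against AngII was 0.15 (SE 0.24), and against CDH16KO-AngII it was −0.41 (SE 0.24, edgeR adjusted p = 0.913).

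Tagln codes for transgelin, an actin-binding protein of smooth muscle (chromosome 9, 45929619 to 45936058). Tagln stood at 18.1, 16.9 and 25.8 CPM in AngII, at 30.6, 16.2 and 24.8 CPM in CDH16KO-AngII and at 19.2, 22.4 and 26.7 CPM in GRPR-AngII. Both the highest and the lowest of the 9 values fell in CDH16KO-AngII. Log2 fold changes against AngII were 0.24 in CDH16KO-AngII and 0.17 in GRPR-AngII (SE 0.25 each, edgeR adjusted p = 0.779 and 0.882). Reads of Tagln cannot be assigned with certainty. Gm48529 overlaps it over 3627 bases on the opposite strand and matched 55% of its longest transcript, Pcsk7 overlaps it over 94 bases, and whether counting used strand is not given. The lowest count of Tagln in a library was 896, against a highest of 285 for Gm48529 and of 2574 for Pcsk7.

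The Acta2 window is shown because CArG boxes, bound by serum response factor, are textbook control elements of smooth muscle genes. The window (chr19:34255324-34255623, minus strand, printed 5′ to 3′ along the gene) holds CArG-like boxes at bases 167 to 176 and 217 to 226 and TATATAA at bases 259 to 265. The TATATAA lies past the annotated start used for the window.
Acta2: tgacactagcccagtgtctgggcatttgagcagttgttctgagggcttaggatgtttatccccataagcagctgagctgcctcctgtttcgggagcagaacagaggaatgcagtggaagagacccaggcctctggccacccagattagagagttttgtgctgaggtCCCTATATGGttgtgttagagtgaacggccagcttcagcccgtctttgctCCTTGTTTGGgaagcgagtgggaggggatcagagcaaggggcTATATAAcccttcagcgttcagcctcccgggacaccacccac
Of the 32851 windows, 8.5% hold a CArG-like box, 1.63% hold a CArG box with A or T at every inner base and 3.24% hold TATATAA. A CArG-like box is not particular to Acta2, since the Col1a2 window above also holds 1. The windows of Col3a1, Sparc and Tgfb1 hold none, which says only that those letters are not in these windows.

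Pdgfrb, the receptor gene of pericytes and fibroblasts, stood at 23.0, 14.2 and 24.1 CPM in AngII, at 22.01, 17.99 and 32.4 CPM in CDH16KO-AngII and at 21.99, 28.4 and 37.4 CPM in GRPR-AngII. It had the highest log2 fold change of the 10 genes in GRPR-AngII against AngII, 0.52 (SE 0.28, 95% interval −0.10 to 1.13, edgeR adjusted p = 0.736). GRPR-AngII library 1 lay inside the AngII range, and the value was 0.30 without GRPR-AngII library 3. In CDH16KO-AngII against AngII it was 0.24 (SE 0.28, edgeR adjusted p = 0.797).

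Tgfb1, the growth factor gene (chromosome 7, 25687002 to 25705077), stood at 13.5, 12 and 12.4 CPM in AngII, at 9.41, 9.96 and 13.2 CPM in CDH16KO-AngII and at 7.72, 13.99 and 11 CPM in GRPR-AngII. It was the gene with the smallest spread in AngII, 1.13-fold, and with a negative value in both comparisons against AngII. The log2 fold change was −0.22 in CDH16KO-AngII (SE 0.23, 95% interval −0.72 to 0.28) and −0.21 in GRPR-AngII (SE 0.23, 95% interval −0.71 to 0.29). Neither passed (edgeR adjusted p = 0.776 and 0.839). These 2 comparisons share the AngII libraries, so the like values are not independent of each other.

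Over all 10 genes, none was called in any of the 3 comparisons at an edgeR adjusted p under 0.05. Among the 12507 genes tested, that threshold called 0.168% in CDH16KO-AngII against AngII, 0% in GRPR-AngII against AngII and 0.144% in GRPR-AngII against CDH16KO-AngII. At an unadjusted p under 0.05, 2 of the 10 genes passed in CDH16KO-AngII against AngII (Acta2 and Sparc), where 8.45% of all genes did, and 0 passed in the other comparisons, where 6.74% and 6.24% of all genes did. DESeq2 called 0 of the 10 genes in each comparison. Libraries of 2 groups did not overlap for 12.2%, 14% and 9.96% of all genes in these comparisons, and for 0 of the 10 genes. With so few calls over the whole table, a count of 0 among 10 genes is near the background. The median log2 fold change was 0.21 in CDH16KO-AngII against AngII, with 7 of 10 genes above 0, where the median of all genes was 0.01 and 51.9% were above 0. It was 0.21 in GRPR-AngII against AngII, with 9 of 10 above 0 (all genes −0.01 and 49%), and 0.16 in GRPR-AngII against CDH16KO-AngII, with 7 of 10 above 0 (all genes −0.01 and 47.4%). Single libraries moved each median. The first ran from −0.06 without CDH16KO-AngII library 3 to 0.40 without AngII library 3, the second from 0.08 without AngII library 2 to 0.49 without AngII library 3, and the third from 0.03 without CDH16KO-AngII library 2 to 0.46 without CDH16KO-AngII library 3. In simulated counts with changes placed in CDH16KO-AngII, edgeR recovered 5.97% of genes changed 1.5-fold and 52.2% of those changed 2-fold. Over these genes, drawn at random from those tested, 1.5-fold changes were thus mostly not detected with 3 libraries a group. The recovery of Acta2 itself was not estimated.

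**Figure D2:**
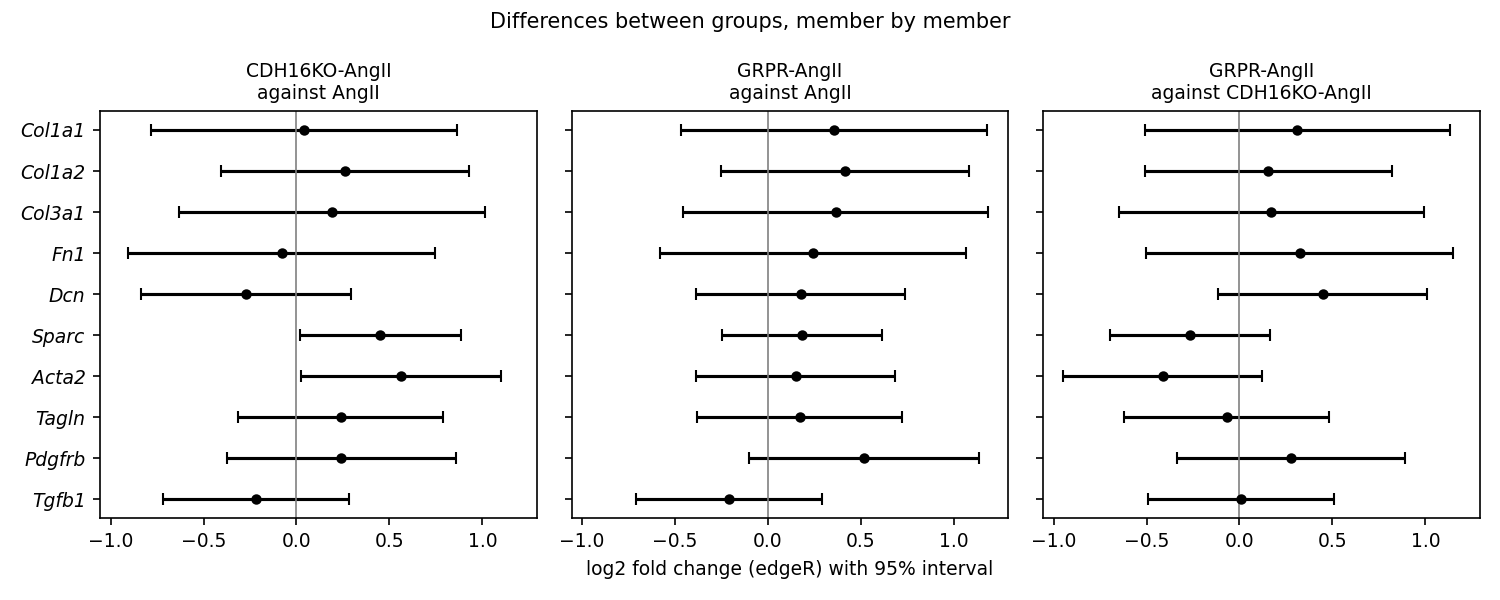
Log2 fold change (edgeR) of each gene in the 3 comparisons, with points for estimates and bars for 95% intervals before adjustment for multiple tests. The intervals of Acta2 and Sparc in CDH16KO-AngII against AngII start just above 0, at 0.03 and 0.02, and all others include 0.

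The libraries of 1 group differed from each other more than the groups did. For 10 of 10 genes, the highest fold between libraries of a group (1.46 for Sparc to 2.75 for Col1a1) was above the fold between the highest and lowest group means (1.16 for Tgfb1 to 1.48 for Acta2). A fold between single libraries is wider than one between means by its nature, so this describes the spread and tests nothing. AngII library 2 was the lowest of its group for 10 of 10 genes and the lowest of all 9 libraries for 6. GRPR-AngII library 1 was the lowest of its group for 9 of 10 genes. Library 3 was the highest of its group for 9 of 10 genes in AngII and for 7 of 10 in CDH16KO-AngII and in GRPR-AngII. The mean log2 CPM of the 10 genes was 4.53, 4.09 and 4.82 in AngII, 4.56, 4.31 and 4.97 in CDH16KO-AngII, and 4.32, 4.84 and 4.98 in GRPR-AngII. The mitochondria-coded share of counts was 21.4%, 17.2% and 17.4% in AngII, 23.4%, 16.1% and 26.4% in CDH16KO-AngII, and 19.2%, 19.05% and 24.6% in GRPR-AngII. The libraries with the highest gene means in the Cre-positive groups had the highest shares there, and AngII library 3 did not. Its part in the result was not tested.

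**Figure D3:**
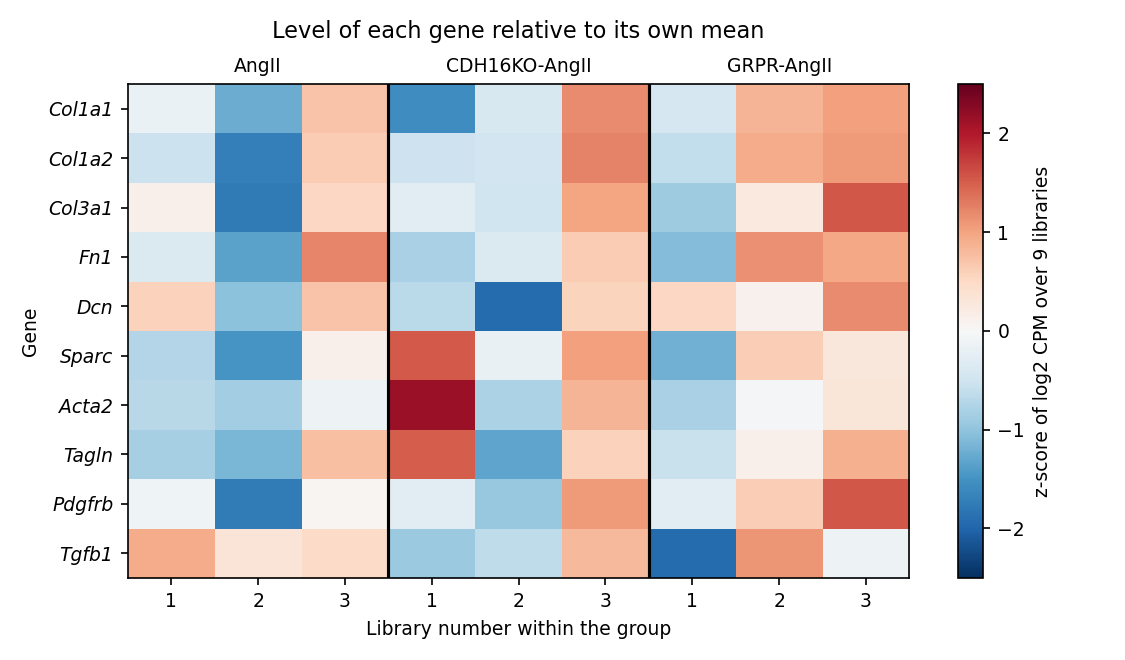
Level of each gene in each library as a z-score of log2 CPM over the 9 libraries, with red above and blue below the gene's own mean. AngII library 2 is low throughout except for Tgfb1, and CDH16KO-AngII library 1 is high for Acta2, Tagln and Sparc and lowest for Col1a1.

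Across the 9 libraries many of the genes were high and low in the same libraries, and no pair with Tgfb1 or Dcn passed the threshold. Pearson's r of log2 CPM was computed for 45 pairs, with exact two-sided permutation p-values adjusted over the 45. It ran from −0.04 to 0.937, with a median of 0.582. Col3a1 and Pdgfrb had the highest r, 0.937 (n = 9, exact permutation p = 0.00043, adjusted 0.00639; Spearman's rho 0.967, exact permutation p = 0.000165, adjusted 0.00372). Their r was 0.799 without the 2 libraries farthest from the median of Col3a1, and 0.97 after the group means were removed. Col1a1 and Col1a2 had r = 0.904 (n = 9, exact permutation p = 0.00188, adjusted 0.0121; rho 0.867, exact permutation p = 0.00451, adjusted 0.029), and 0.994 without the 2 farthest libraries. Acta2 and Sparc had r = 0.889 (n = 9, exact permutation p = 0.000171, adjusted 0.00515; rho 0.967, exact permutation p = 0.000165, adjusted 0.00372), and 0.839 without the 2 farthest. Acta2 and Tagln had r = 0.869 (n = 9, exact permutation p = 0.00078, adjusted 0.00702; rho 0.833, exact permutation p = 0.00827, adjusted 0.0465), and 0.928 without the 2 farthest. In all, 12 of the 45 pairs had an adjusted p under 0.05. These p-values, added to what was planned as a description, permute all 9 libraries freely and so ignore the groups. The pairs share libraries, depth and scaling, and a group of 3 libraries is too small for a value within each group. No share over pairs of other genes is given here. The count of 12, and the counts by block below, thus do not show a link particular to these genes. Genes chosen below as most alike, such as Cpsf1 and Kmt2a, followed their mean within groups at r = 0.986 and 0.98.

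Sorted after their values were seen, the genes formed 2 blocks over the 9 libraries, the collagens with Fn1 and Pdgfrb (r 0.765 to 0.937 over 10 pairs) and Acta2, Tagln and Sparc (r 0.813 to 0.889 over 3 pairs). Of these pairs 9 of 10 and 3 of 3 passed, and Fn1 with Pdgfrb did not (exact permutation adjusted p = 0.0509). Between the blocks r ran from −0.04, for Col1a1 with Acta2, to 0.649 over 15 pairs, and none passed. That separation rested on 1 library. Without CDH16KO-AngII library 1, the 15 values between the blocks ran from 0.763 to 0.941 with a median of 0.855, and Col1a1 with Acta2 had r = 0.906 over 8 libraries. Tgfb1 had r from −0.04 to 0.564 with the other 9 genes over 9 libraries and from 0.152 to 0.513 over 8. Dcn had r from 0.107 to 0.764 over 9 libraries and from 0.152 to 0.781 over 8. Its 0.764 was with Pdgfrb (exact permutation adjusted p = 0.0509), like the 0.765 of Fn1 with Pdgfrb, so the border of the first block is not sharp. After the group means were removed, the values of Tgfb1 were higher for several genes, at 0.711 with Fn1, 0.699 with Col1a1 and 0.696 with Col1a2, and those of Acta2 and Tagln with it were 0.178 and 0.185.

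**Figure D4:**
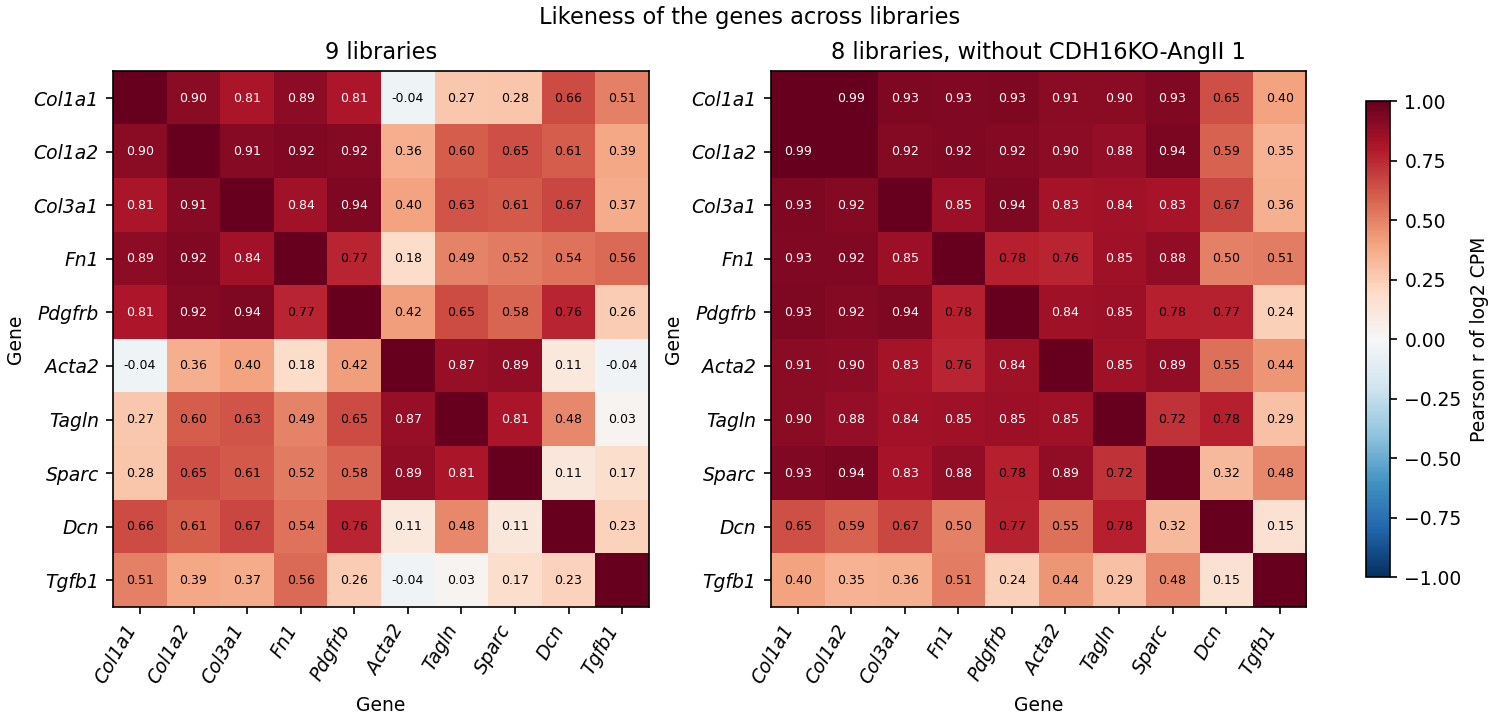
Pearson r of log2 CPM for each pair of genes over 9 libraries (left) and over 8 libraries without CDH16KO-AngII library 1 (right), with red for positive values. On the left Acta2, Tagln and Sparc stand apart from the collagens with r of 0.649 or below, and on the right they join them with r of 0.763 or above, while no pair with Tgfb1 exceeds 0.564 on the left or 0.513 on the right.

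A search for genes most like the 10 left out the 10 genes, the 9 lists described below and predicted-gene or clone names. Among the remaining tested genes, the 5 whose pattern within groups was most like the mean of the 10 (as z-scores, group means removed, n = 9 libraries) were Cpsf1, a cleavage and polyadenylation factor (r = 0.986), Kmt5c, a histone methyltransferase (r = 0.984), Mtss2 (r = 0.983), Safb2, a scaffold attachment factor (r = 0.981), and Kmt2a, a histone methyltransferase (r = 0.98). They were picked as the highest of the genes searched, so these values are a description. Genes of the fibroblast, pericyte and smooth muscle lists could not appear among the 5, since those lists were left out.

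Other genes of the matrix and its control were taken from 9 lists of 110 genes, of which 72 were tested, and 0 were called in any comparison by edgeR. At an unadjusted p under 0.05, 5 passed in CDH16KO-AngII against AngII, 7 in GRPR-AngII against AngII and 8 in GRPR-AngII against CDH16KO-AngII. Library ranges did not overlap for 6, 8 and 9 of the 72, beside the shares of all genes above. The plot of log2 fold changes by list gives each tested gene.

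Ligands and receptors of TGF-beta had 14 of 19 genes tested and medians of 0.03 in CDH16KO-AngII and −0.09 in GRPR-AngII, each against AngII. Tgfbr2, the type II receptor, was at −0.37 and −0.45 on the log2 scale (edgeR adjusted p = 0.562 and 0.685), with all libraries of either group below those of AngII, and Tgfb2, another ligand, lay at 0.10 to 0.26 FPKM and was not tested. Of 7 TGF-beta responsive genes, 5 were tested. Ccn2, a matricellular protein, was at 0.20 in CDH16KO-AngII and 0.31 in GRPR-AngII against AngII (edgeR adjusted p = 0.805 and 0.787), and Tgfbi, a matrix protein named for its induction by TGF-beta, at −0.43 and 0.29 (edgeR adjusted p = 0.623 and 0.793). Libraries of GRPR-AngII lay above all of CDH16KO-AngII for Tgfbi, with a log2 fold change of 0.72 that did not pass (edgeR adjusted p = 0.448). All 5 PDGF genes were tested, and Pdgfra, Pdgfb and Pdgfd were at 0.09, 0.10 and −0.01 in CDH16KO-AngII and at 0.33, 0.06 and −0.31 in GRPR-AngII against AngII.

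Of 7 other fibrillar and fibril-associated collagens, 4 were tested, with a median of 0.17 in CDH16KO-AngII and 0.67 in GRPR-AngII against AngII. Col14a1, a fibril-associated collagen, was at 0.57 and 0.79 (edgeR adjusted p = 0.623 and 0.732), and its GRPR-AngII libraries lay above all AngII libraries. Col5a2 was at 0.33 and −0.13. Col5a3, named after its values were seen, was at 0.01 and 1.03, the latter the highest value of the lists in that comparison (edgeR adjusted p = 0.685). Of 19 genes that fold, cut and crosslink collagen, 14 were tested, and 11 and 13 were above 0 in the 2 comparisons with medians of 0.19 and 0.14. Serpinh1, the collagen chaperone, was at 0.18 and 0.11, and Pcolce, which aids the cutting of procollagen, at 0.28 and 0.05. Plod2 and Plod3, lysyl hydroxylases named after their values were seen, were at 0.48 and 0.36 in CDH16KO-AngII, with all libraries above those of AngII (edgeR adjusted p = 0.304 and 0.375).

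Only 6 of 16 other interstitial matrix proteins were tested, all 6 above 0, with medians of 0.28 in CDH16KO-AngII and 0.44 in GRPR-AngII against AngII. Bgn, a small proteoglycan related to decorin, was at 0.27 and 0.47 (edgeR adjusted p = 0.796 and 0.757). Of 15 smooth muscle genes 10 were tested, 9 of them above 0 in each comparison, with medians of 0.24 and 0.25. Myh11, smooth muscle myosin, was at 0.48 and 0.32 (edgeR adjusted p = 0.623 and 0.792), and Myl9, a myosin light chain, at 0.42 and 0.37 (edgeR adjusted p = 0.658 and 0.767). Of 11 fibroblast and pericyte markers 8 were tested, with medians of 0.15 and 0.02. Vim was at 0.38 and 0.15, Thy1 at −0.77 and −0.10, and Rgs5, a pericyte regulator, at 0.52 and −0.03 (edgeR adjusted p = 0.561 and 0.982). Itga8, an integrin chain of mesangial and interstitial cells named after its values were seen, had the smallest p of the lists, with 0.99 in CDH16KO-AngII against AngII and all libraries above those of AngII (edgeR adjusted p = 0.215). DESeq2 called it, at 0.98 with an adjusted p of 0.0183. Over the 12 other settings its log2 fold change ran from 0.48 to 0.99, and DESeq2 was the only one of them to call it. Of 11 genes of matrix breakdown 6 were tested, with medians of 0.13 and 0.07, and Timp3, a protease inhibitor, was at −0.20 and −0.19.

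**Figure D5:**
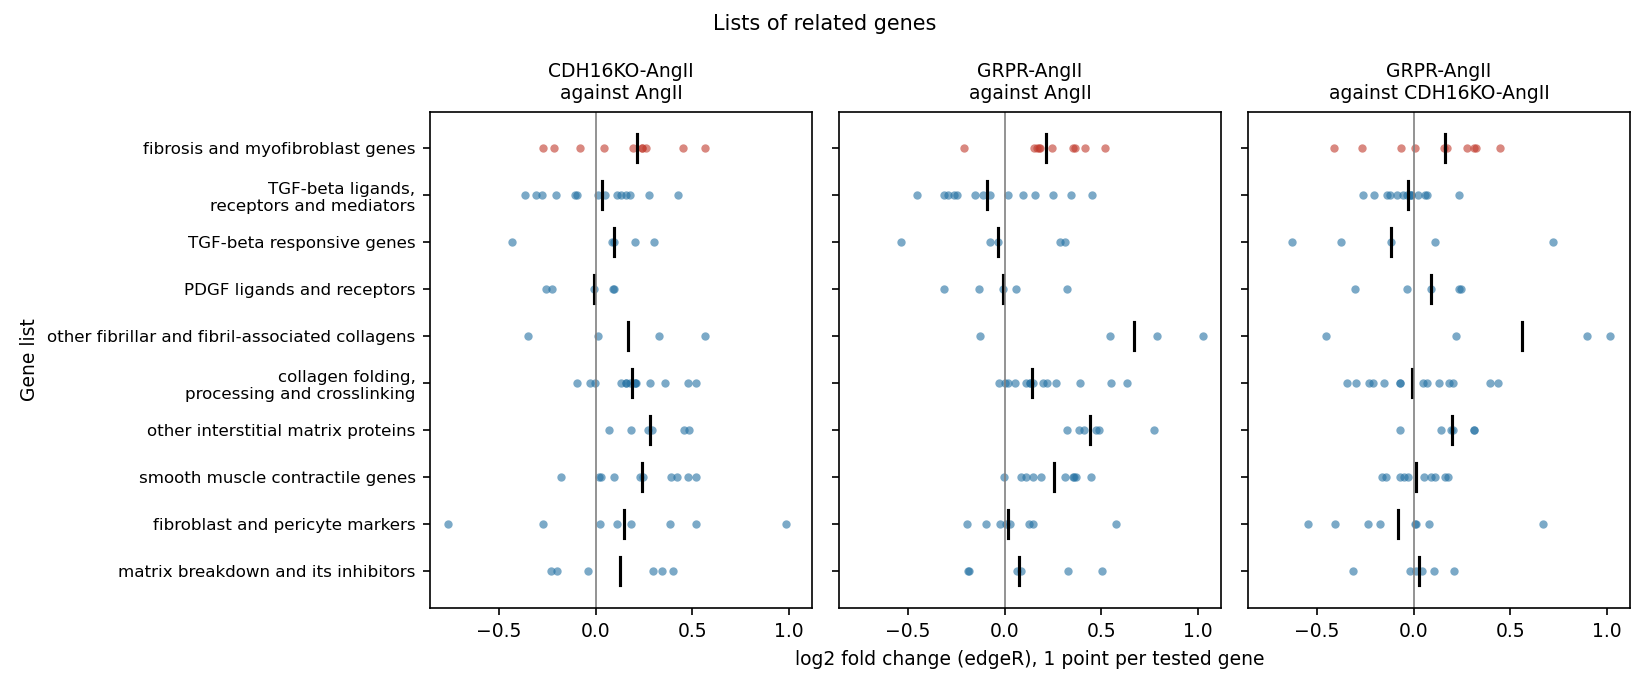
Log2 fold change (edgeR) of each tested gene of the 10 genes (red) and of 9 lists of related genes (blue) in the 3 comparisons, with a black bar at each median. No gene shown passed the threshold, and the list medians lie between −0.12 and 0.67.

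Markers of other cell types were read beside these values. Smooth muscle genes summed to 317.8 to 389.4 CPM in AngII, 334.3 to 490.9 CPM in CDH16KO-AngII and 355.6 to 460 CPM in GRPR-AngII, and fibroblast and pericyte markers to 158.6 to 213.3, 167.4 to 253.6 and 170.9 to 213.3 CPM. Rgs5, Cspg4, Myh11 and Cnn1 had their highest value in CDH16KO-AngII library 1, where Acta2, Tagln and Sparc also had theirs. All other genes of these lists peaked in other libraries, such as Myl9 and Mylk in GRPR-AngII library 3 and Vim in CDH16KO-AngII library 3. The sums of both lists were highest in CDH16KO-AngII library 3, at 490.9 and 253.6 CPM, against 430.6 and 235.7 CPM in library 1 of that group. The mean log2 CPM of smooth muscle genes was 3.40, 3.16 and 3.35 in AngII, 3.51, 3.18 and 3.64 in CDH16KO-AngII and 3.22, 3.47 and 3.57 in GRPR-AngII, lowest in AngII library 2 as for the 10 genes. Proximal tubule markers, lower in sum in CDH16KO-AngII as given above, had 5 of 6 genes below 0 in CDH16KO-AngII against AngII, with a median of −0.22. Slc34a1, the phosphate transporter, was at −0.53 there, with all libraries below those of AngII (edgeR adjusted p = 0.506), and Slc5a2, a glucose transporter, was at 0.38 with all above (edgeR adjusted p = 0.588). The part of these markers in the differences was not tested. The 3 markers of the thick ascending limb and distal convoluted tubule summed to 3108 to 4911 CPM, the 3 collecting duct markers to 193.8 to 711.6 CPM, the 3 erythroid markers to 51.86 to 1145 CPM and the 1 juxtaglomerular marker to 36.53 to 76.54 CPM, with overlapping groups. The 5 endothelial markers summed to 147 to 208.4 CPM, the 5 macrophage markers to 65.55 to 132.8 CPM and the 4 podocyte markers to 138.4 to 194.2 CPM over all libraries, with overlapping groups. The 4 T cell markers summed to 2.587 to 9.862 CPM, the 3 B cell markers to 1.426 to 22.87 CPM, the 3 urothelial markers to 0.1408 to 4.761 CPM and the 3 adipocyte markers to 0 to 0.4256 CPM. A count of 0 allows up to 3 counts, or 0.0496 to 0.0737 CPM before scaling, which covers counting error only. No member of a marker list passed the threshold in any comparison.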

How the data were processed

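RNA-seq of 9 kidney libraries, 3 per group, was analysed from the deposited table. Per the labels' protocols, total RNA went into a SMARTER library kit, and the submitters' processing notes name the builds GRCm38 and mm10. The aligner, the counter and the use of strand were not given in the sources used here. For each library the authors deposited FPKM, scaled to length and depth, and gene counts. These deposited values, handled here like estimated counts, were whole, and rounding changed none. No column belonged to a sample outside the series.

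The filter kept 12507 of 32593 genes, those that reached 1 FPKM in 3 or more libraries. The quasi-likelihood test of edgeR 4.0.16 (R 4.3.3) was run on all 9 libraries with TMM scaling and 1 coefficient per group, and Benjamini-Hochberg adjusted p under 0.05 over all tested genes was a call. CPM values used TMM-scaled library sizes, and log2 CPM added 0.5. Each standard error was the absolute log2 fold change over the square root of F. Alternatives were DESeq2 1.42.0, limma 3.58.1 on log2(FPKM + 1) and log2(FPKM + 0.1), other filters and scalings, a replicate block, fits of 2 groups, and leaving out each library. The script was tested on simulated counts. Shared sequence was searched with BLAST+ 2.17.0 at 95% identity in GENCODE transcripts of GRCm38. Libraries of 1 group had a chi-square per gene of 74.2 to 366, so none looked like a duplicate. Separate animals are not stated in the labels, and the p-values then reflect only how far these libraries vary, which may be technical.

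Named genes are the 10 genes, the first 3 of each of 9 lists (1 of them is not reported here), genes of a list that were called (0), the 5 genes most alike, and those said to be named after their values were seen. The 10 genes and the lists were chosen with earlier results of these data known. Promoter windows are from RefSeq (GRCm38.p6).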

Additional observations from a re-analysis of the deposited data

How the results depend on the processing

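None of the 10 genes was called in any comparison under the 12 other settings or the 9 fits that left out 1 library. Over the 12 settings their median log2 fold change ran from 0.13 to 0.21, 0.11 to 0.23 and 0.08 to 0.20 in CDH16KO-AngII against AngII, GRPR-AngII against AngII and GRPR-AngII against CDH16KO-AngII. Leaving out 1 library moved it more, from −0.06 to 0.40, 0.08 to 0.49 and 0.03 to 0.46. Counts over all genes were less steady. Against 21, 0 and 18 genes, DESeq2 called 210, 54 and 175, dropping the filter called 41 in the last comparison and fitting only its 2 groups called 9. Leaving out 1 library gave 0 to 42, 0 to 2 and 0 to 50. Leaving out libraries 1 and 2 of AngII in turn gave 0 and 3 in the first comparison, leaving out libraries 1, 2 and 3 of CDH16KO-AngII gave 42, 35 and 3, and leaving out library 1 of GRPR-AngII gave 12. In the second comparison, leaving out library 3 of AngII gave 2 and library 1 of GRPR-AngII gave 1. In the last comparison, libraries 1 and 3 of CDH16KO-AngII gave 50 and 2, and libraries 1, 2 and 3 of GRPR-AngII gave 0, 6 and 5. The cause was not tested. The median r over pairs of the 10 genes, 0.582, was 0.509 to 0.83 when 1 library was left out, an alternative chosen after seeing the data.

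The labels do not say what a replicate number marks. Libraries numbered 2 and those numbered 3 deviated together (r of deviations 0.134 to 0.298 over 6 pairs), and those numbered 1 did not (−0.122 to 0.0906 over 3 pairs). AngII library 1 had its highest r with GRPR-AngII library 2, at 0.235, so not every library was closest to its own number and the pairing was left unused. A replicate block called 0 of the 10 genes in each comparison and 26, 0 and 13 genes in all. With 3 libraries a group, the self-test recovered few 1.5-fold changes in genes drawn at random. Differences of that size among the 10 genes may thus also have gone undetected.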

Other observations

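Tgfbr1, the type I TGF-beta receptor gene, was nearly missing from 1 library. It stood at 1.60 CPM in AngII library 2 and at 29.9 to 37.9 CPM in the other 8 libraries, 18.7-fold below the lowest of them, from 85 counts against 1449 or more. No other gene of the table overlaps it. Its log2 fold change was 0.43 in CDH16KO-AngII and 0.45 in GRPR-AngII, each against AngII (edgeR adjusted p = 0.86 and 0.891), and −0.13 and −0.10 without AngII library 2. Genes at least 5-fold below all other libraries numbered 6 to 20 of 12507 per library, 6 of them in AngII library 2, and every library had some. Among genes with a median of at least 10 CPM in the other libraries, as for Tgfbr1, they numbered 1 to 6 per library. Tgfbr1 was the only 1 of these in AngII library 2. The same library had the lowest values of the group for all 10 fibrosis genes. It was also the lowest of the 9 libraries for genes outside them, such as Cpsf1 and Kmt2a, chosen as most alike. Umod and Kdr, by contrast, had their highest value there. A link between these levels and Tgfbr1 was not tested.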
